A study of Homo sapiens with 12 samples.

Results

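The 249 protein-coding genes of human chromosome 19 whose symbol is ZNF followed by a number were examined by ribosome profiling of HepG2 cells, out of 58721 genes counted. The rule uses symbol, gene type and chromosome and no measured value, and 3 of the genes are read-through genes with joined symbols such as ZNF625-ZNF20. For comparison, 266 ZNF genes of the same kind lie on other chromosomes, and 1219 other protein-coding genes lie on chromosome 19. HepG2 is a human liver cancer cell line, and the cells were transfected with a control siRNA (siControl) or with an siRNA against IGF2BP3 (siIGF2BP3), which encodes an RNA-binding protein. All cells were collected 2 days later, after 4 min in 100 µg/mL cycloheximide, which stalls elongating ribosomes. From each condition came 3 Input libraries, a measure of how much of each transcript was there, and 3 RPF libraries of ribosome-protected fragments 28 to 30 nt long, 4 groups in all. The knockdown was transient and done in a single cell line, and the labels number the libraries without saying whether they came from separate cultures, so p-values measure a spread between libraries that may be technical.

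Most ZNF proteins carry a row of C2H2 zinc fingers, small zinc-binding units that each read a few bases of DNA, joined by a short conserved linker. Many on chromosome 19 also begin with a KRAB domain, which recruits the corepressor TRIM28 (KAP1) and through it the histone methyltransferase SETDB1, so that the bound DNA is packed into silent chromatin. Their best known targets are transposable elements: ZNF91 silences SVA elements, ZNF93 silences LINE-1 elements, and ZNF417 and ZNF587 bind HERV-K sequences. The family grew by repeated tandem duplication, so its members stand in clusters of close relatives and share stretches of coding sequence. A footprint that falls in such a stretch cannot be given to 1 gene with certainty.

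Total counts were between 11219750 and 14797573 per Input library and between 13036423 and 31510601 per RPF library. The targeted transcript, IGF2BP3, lay between 127 and 133 CPM (a count divided by the library total and scaled to 1000000) in siControl Input and between 97.9 and 105 CPM in siIGF2BP3 Input, and between 74.6 and 78.1 CPM against 21.9 to 28.0 CPM in RPF. The 9 hepatocyte markers examined, among them ALB and APOB, summed to between 52125 and 57415 CPM in Input, and 5 of the 8 markers of blood, endothelium and fibroblasts stayed under 1 CPM in every Input library. The fibroblast marker PDGFRB read 7.31 to 9.38 CPM in Input. The endothelial markers PECAM1 and VWF read 1.01 to 1.98 CPM and up to 1.07 CPM. siControl RPF replicates 2 and 3 differed by less than the sampling noise (mean chi-square 0.941 per gene, against 2.09 and 2.80 for the other siControl RPF pairs) and count as 1 sample in every mean ± SD, so n = 2 for siControl RPF and n = 3 for the other groups. siIGF2BP3 RPF replicate 1 stood apart from replicates 2 and 3 (mean chi-square 19.9 and 21.5, against 1.15 between replicates 2 and 3). Over the ZNF genes of chromosome 19 the same values were 3.15, 3.28 and 0.872. In these genes siControl RPF replicates 2 and 3 gave 1.03, against 0.958 and 0.853 for the other siControl RPF pairs, so they were no closer than the others. siIGF2BP3 Input replicate 2 gave 2.61 and 3.11 in these genes against replicates 1 and 3, which gave 1.81 between them. Over all genes the same values were 2.57, 2.05 and 2.60, so replicate 2 did not stand apart there.

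The coding sequences show how much of this family a footprint can tell apart. The windows below have 28 bases, the length of the shortest footprints taken, and are given 5′ to 3′ on the coding strand of hg38; capitals mark the 6 codons of the linker between fingers. The first is the window held by more of these genes than any other, 35 of the 249 and 16 ZNF genes of other chromosomes; it occurs 6 times in the coding sequence of ZNF91 (one copy at chr19:23359991-23360018, minus strand) and 2 times in that of ZNF714 (one copy at chr19:21117666-21117693, plus strand). The next is the most widely held window of ZNF813 (chr19:53491107-53491134, plus strand, held by 28 of these genes), and the one after it that of ZNF417 (chr19:57909301-57909328, minus strand, held by 10). The last pair come from the KRAB-coding part and are shown from ZNF100, at chr19:21744947-21744974 and chr19:21745015-21745042 on the minus strand, with 18 and 17 holders.
ZNF91 and ZNF714: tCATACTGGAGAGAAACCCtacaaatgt
ZNF813: ttCATACTGGAGAGAAACCTtacaaatg
ZNF417: ttCACACTGGAGAAAGGCCTtatgagtg
ZNF100, first KRAB window: atgttagagaactacagaaacctggtct
ZNF100, second KRAB window: ccatagaattctctctggaggagtggca

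Across the 249 genes, a median of 13.4% of the 28-base coding windows also occurred in a transcript of another gene, against 2.24% in ZNF genes of other chromosomes. The share ran from 0 to 100%, and 24 of the genes held no window in common with another of the 249. The encoded proteins had a median of 12 zinc fingers (up to 39), and 214 carried a KRAB-like sequence pattern. Those with the pattern shared a median of 17.5% of their windows and had a median exon GC content of 42.8%, against 0.74% and 60.2% in the 35 without it. Genes lying less than 1000000 bases from the next formed 16 neighbourhoods, numbered along the chromosome, and 9 of these held at least 5 genes. Neighbourhood 5 (chr19:19668796-24129961, 37 genes, all with the KRAB-like pattern) shared a median of 41.6% of its windows, its proteins were a median of 71% identical to their nearest relative, and its GC content was 38.6%. Neighbourhood 3 (chr19:11483427-12640098, 26 genes) shared 35%, neighbourhood 15 (chr19:51571298-53580269, 40 genes) 16.5% and neighbourhood 16 (chr19:55476332-58481230, 59 genes) 4.73%. The closest pair was ZNF417 and ZNF587, with 98.1% protein identity, 79.4% of the windows of ZNF417 present in ZNF587, and 1 common run of 538 bases.

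**Figure D1:**
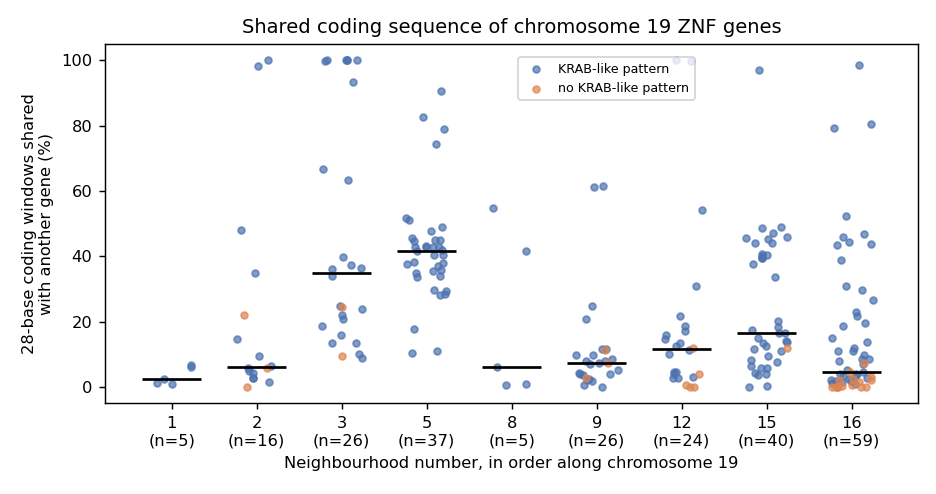
Share of 28-base coding windows that also occur in another gene (%, vertical axis), for each ZNF gene in the 9 neighbourhoods of chromosome 19 with at least 5 such genes; points are genes, blue with and orange without a KRAB-like pattern, and bars are medians. The bars of neighbourhoods 3 and 5 stand at 35% and 41.6%, above those of the other 7.

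The deposited counts were often fractional, as they are when a read with several possible sources is divided among them; the counting option used is not given in the sources used here. In the Input libraries, between 38.0% and 41.9% of the ZNF genes of chromosome 19 with a count had a fractional value, against 26.5% to 27.8% of other protein-coding genes. In the RPF libraries, whose reads are shorter, the shares were 90.3% to 94.3% and 48.1% to 53.7%. Of the 90 genes with over 25% shared windows, 84 were fractional in all 6 RPF libraries, against 35 of the 74 genes under 5%. Rounding to whole numbers before testing moved the summed counts of the 249 genes by at most 0.369% in any library.

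As a family these genes took a small share of the counts: 0.223% to 0.232% in siControl Input and 0.121% to 0.122% in siControl RPF. In siIGF2BP3 Input the share was 0.245% to 0.255%, so all 3 libraries lay above all 3 siControl Input libraries. The same held for ZNF genes of other chromosomes, at 0.504% to 0.515% and 0.532% to 0.548%. These are shares of library totals without scaling factors. Taken singly in CPM, 19.2% of all genes tested in Input lay above siControl in all libraries and 5.73% below, so a rise was not limited to ZNF genes. In siIGF2BP3 RPF the share of the 249 genes was 0.118% to 0.124% and overlapped the siControl libraries. Of the 249 genes, 219 had counts in all 12 libraries and none was at 0 in all of them. Levels between genes are compared per exon length, as TPM: the median in siControl Input was 2.67 TPM, against 4.69 TPM for ZNF genes of other chromosomes, and 39 of the 249 reached 10 TPM.

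The highest level per length belonged to ZNF146, which encodes a protein of fingers alone without a KRAB domain, at 191 TPM in siControl Input. ZNF787 (53.1 TPM), ZNF121 (46.4 TPM), ZNF761 (44.1 TPM), ZNF581 (41.0 TPM), ZNF841 (28.2 TPM), ZNF614 (26.4 TPM) and ZNF83 (26.2 TPM) followed. Among the known repressors of transposable elements, ZNF91 was at 20.3 TPM, ZNF587 at 5.08 TPM, ZNF417 at 2.92 TPM and ZNF93 at 0.234 TPM. ZNF274, which brings SETDB1 to the 3′ ends of other ZNF genes, was at 12 TPM, and ZNF224, a KRAB repressor, at 13.1 TPM. ZNF146 counted 228, 221 and 217 CPM in siControl Input and 239, 228 and 224 CPM in siIGF2BP3 Input, so the groups overlapped. Its RPF values were 30.2, 29.4 and 30.8 CPM in siControl and 22, 29.9 and 25.9 CPM in siIGF2BP3, with siIGF2BP3 replicate 1 the lowest and replicate 2 among the siControl values. For ZNF787 and ZNF581 siIGF2BP3 RPF replicate 1 was instead the highest library: ZNF787 read 40.4 CPM there, 22.7 and 22.1 CPM in replicates 2 and 3, and 24.3, 23.6 and 23.4 CPM in siControl. For ZNF121 (92.8 to 95.4 CPM in siControl Input and 24.3 to 26.3 CPM in siControl RPF), ZNF761 (58 to 58.4 and 7.46 to 8.04 CPM) and ZNF614 (39.6 to 45.9 and 18 to 19.4 CPM) the siControl RPF level also lay below Input in every library. None of these 6 genes passed the test in Input, RPF or translational efficiency.

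ZNF93 was near the floor in Input, at 0.240, 0.541 and 0.317 CPM in siControl and 0.178, 0.388 and 1.23 CPM in siIGF2BP3, and was not tested there. In RPF it read 0.757, 1.16 and 0.885 CPM against 0.760, 0.991 and 1.10 CPM, which overlapped (0.11 ± 0.21, adjusted p = 0.88).

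At the other end, 15 genes were at 0 in all 6 Input libraries, and 14 of these still had RPF counts in all 6 RPF libraries. ZNF578 had the most, up to 1.37 CPM, with 37.7% of its windows shared. ZNF492, with 82.7% shared, followed with up to 0.695 CPM. ZNF723, ZNF98, ZNF728 and ZNF729 came next, and these 4 and ZNF492 all lie in neighbourhood 5. Among the remaining 9 genes of the 15 the highest value was 0.289 CPM, for ZNF471 with 7.82% shared. Whether the footprints at these genes came from relatives with the same sequence was not tested.

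The first comparison asked how footprints related to Input within a condition. In siControl, 213 of the 249 genes passed the filter on low counts, and their median log2 ratio of RPF over Input was -0.43, against -0.12 for all protein-coding genes tested and -0.80 for ZNF genes of other chromosomes. The ratio passed the test (edgeR's quasi-likelihood test, Benjamini-Hochberg adjusted p under 0.05) in 119 genes on the lower side and in 58 on the higher side, which is 55.9% and 27.2% of those tested. The background is high here, since 92.2% of all genes tested were called in either direction, 37.2% lower and 55.0% higher, and among protein-coding genes 47.9% were called lower and 41.7% higher. In siIGF2BP3, 207 genes were tested, with a median of -0.56, 110 called lower and 47 called higher. Over all genes tested there 89.0% were called, 35.5% lower and 53.5% higher, and among protein-coding genes 44.6% were called lower and 40.7% higher. The conditions share no library. Of the 119 lower in siControl 104 (87.4%) were also called lower in siIGF2BP3, where they made up 94.5% of the 110, and 44 genes were called higher in both; none was called lower in one and higher in the other. The same overlap was not counted over all genes. Since 92.2% and 89.0% of all genes were called, it cannot be read as particular to these genes.

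The ratio moved with exon length. Split by length into 3 sets, the shortest tested genes (1252 to 4042 bases) had a siControl median of -0.04, the middle set (4051 to 6453 bases) of -0.43 and the longest (6467 to 14132 bases) of -0.93. Other protein-coding genes of the same lengths, ZNF genes left out, had medians of 0.34, -0.11 and -0.56, and ZNF genes of other chromosomes -0.16, -0.63 and -1.38. With an offset that removes the trend on length, 80 genes were called higher and 79 lower in siControl with a median of -0.01, and 66 and 70 in siIGF2BP3 with a median of -0.05. Over all genes these fits called 17598 and 16346. They were recentred to keep the median of all genes at its earlier value, 0.48 and 0.49, so 0 is not the middle of all genes. The medians of the ZNF genes of chromosome 19, -0.01 and -0.05, thus still lay below those of all genes. The calls over all genes in these fits are not split by direction here, so the balance of higher and lower calls has no background. Footprints fall in coding sequence while Input reads cover whole transcripts; the part of untranslated sequence in the ratio was not tested.

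**Figure D2:**
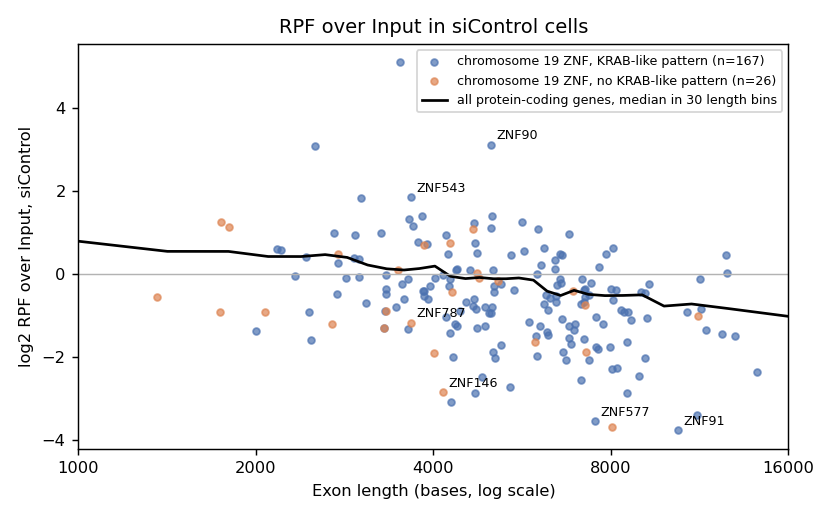
log2 ratio of RPF over Input in siControl (vertical axis) against exon length in bases (horizontal log axis), for the 193 tested ZNF genes of chromosome 19 with at least 1 CPM in siControl Input; the line gives the median of all protein-coding genes in length bins. The points spread widely around a falling line, with ZNF90 at 3.12 and ZNF91 at -3.78.

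The lowest ratio among genes with at least 2 CPM in siControl Input was that of ZNF91 (chr19:23304991-23395560, minus strand, 32 fingers). It counted 60.9, 60.1 and 56.7 CPM in siControl Input but 4.55, 4.13 and 3.94 CPM in siControl RPF, a log2 ratio of -3.78 ± 0.07 (SE). ZNF83 followed at -3.70 ± 0.08, with Input at 56.5 to 61.5 CPM and RPF at 3.63 to 4.92 CPM. ZNF577 (-3.56 ± 0.18), ZNF493 (-3.40 ± 0.12) and ZNF841 (-3.08 ± 0.09) completed the lowest 5. All 5 were again called lower in siIGF2BP3, with ratios from -4.43 for ZNF577 to -2.91 for ZNF91.

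The highest ratio in that set was that of ZNF90 (chr19:20077994-20127076, plus strand), with 2.91, 3.58 and 2.66 CPM in siControl Input and 26.7, 26.0 and 26.2 CPM in siControl RPF, a log2 ratio of 3.12 ± 0.09. Its exons share 441 bases with a processed pseudogene on the same strand (ENSG00000224864), which had 0.298 CPM in siControl Input and 24.4 CPM in siControl RPF. Footprints of the pseudogene and of ZNF90 therefore cannot be told apart there. ZNF543 (1.86 ± 0.17), ZNF749 (1.84 ± 0.15), ZNF627 (1.39 ± 0.12) and the read-through gene ZNF625-ZNF20 (1.32 ± 0.15) came next, and all 5 were called higher in siIGF2BP3 as well. ZNF625-ZNF20 shares 1404 exon bases with ZNF625 and 2212 with ZNF20, and 93.4% of its windows occur elsewhere, so its value is that of the locus. In 7 genes every window occurred elsewhere, and 6 of them, ZNF20, ZNF625, ZNF559-ZNF177, ZNF709, ZNF564 and ZNF284, reached 1 CPM in siControl Input. The siControl ratios of these 6 ran from -1.44 ± 0.30 for ZNF559-ZNF177 to 0.58 ± 0.15 for ZNF625. Another gene here means any other annotated gene, read-through and overlapping ones included, so full sharing need not mean a near copy elsewhere. The proteins of ZNF709, ZNF564 and ZNF284 were only 69.0%, 61.8% and 66.6% identical to their nearest relative.

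The second comparison asked which transcripts changed after the knockdown. In Input 9 of the 200 genes tested rose and none fell at an adjusted p under 0.05. The background was 5.96% of all genes tested called in either direction, 4.05% higher and 1.9% lower. An unadjusted edgeR p under 0.05 was found in 22 of the 200, a smaller share than the 2602 of 12206 protein-coding genes. The 9 are 4.50% of those tested, close to the background for rises. The median log2 fold change was 0.07 over the 200 genes, with 133 of them above 0, against -0.01 for all protein-coding genes, of which 48.5% were above 0, and 0.02 for ZNF genes of other chromosomes, of which 56.2% were above 0. In the 172 tested genes with the KRAB-like pattern the median was 0.09 and 121 were above 0; in the 28 without it the median was -0.02 and 12 were above 0. All 3 siIGF2BP3 libraries lay above all 3 siControl libraries in 37 of the 200 genes (18.5%) and below in 2; over all genes tested the shares were 19.2% above and 5.73% below. In bulk RNA, more transcript per cell and more cells with the transcript cannot be told apart.

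The rises were small. ZNF83, which encodes fingers without a KRAB-like pattern, went from 61.5, 59.2 and 56.5 CPM in siControl to 74.7, 80.6 and 76.6 CPM in siIGF2BP3 without overlap, a log2 fold change of 0.34 ± 0.06 (adjusted p = 0.00049), and was the 1 gene of the 9 whose call held with any single library left out. ZNF841 went from 33.0, 36.3 and 32.6 CPM to 46.8, 39.5 and 52.4 CPM (0.39 ± 0.08, adjusted p = 0.0041). ZNF558 went from 7.91, 8.65 and 7.86 CPM to 10.7, 12.6 and 14 CPM (0.56 ± 0.12, adjusted p = 0.0057). In none of these did the groups overlap. ZNF841 and ZNF558 each lost the call only without siIGF2BP3 Input replicate 3, at adjusted p of 0.050 and 0.051.

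ZNF160 (0.24 ± 0.07), ZNF331 (0.26 ± 0.07), ZNF266 (0.27 ± 0.08), ZNF552 (0.37 ± 0.11) and ZNF30 (0.61 ± 0.17) rose with adjusted p between 0.023 and 0.043, and lost the call with single libraries left out, ZNF160 in 2 such fits, ZNF331 and ZNF30 in 4 each and ZNF266 in 5. ZNF552 lost it without any one of the 6 libraries, with no filter and with the replicate block. ZNF331, an imprinted gene, read 40.2, 39.3 and 37.7 CPM in siControl and 52.2, 45.0 and 47.8 CPM in siIGF2BP3. ZNF30, in neighbourhood 8, read 4.32, 3.11 and 3.57 CPM against 5.62, 6.36 and 5.20 CPM. ZNF83, ZNF841, ZNF160 and ZNF331 all lie in neighbourhood 15, where 23 of 32 tested genes were above 0. In RPF none of the 9 passed the test, with log2 fold changes from -0.17 for ZNF552 to 0.41 for ZNF841.

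ZNF417 (chr19:57900296-57916610, minus strand) had the largest rise of the 9, from 2.68, 4.31 and 3.33 CPM to 7.15, 4.46 and 8.78 CPM (0.90 ± 0.21, adjusted p = 0.0097). siIGF2BP3 replicates 1 and 3 were high, while replicate 2 stood just above the highest siControl library. Its near copy ZNF587 (chr19:57849857-57865112, plus strand) was likewise highest in siIGF2BP3 replicates 1 and 3, with 8.27, 13.7 and 9.50 CPM in siControl and 29.1, 12.3 and 36.6 CPM in siIGF2BP3. siIGF2BP3 replicate 2 lay within the siControl values, and ZNF587 did not pass the test (1.22 ± 0.51, adjusted p = 0.29). Reads of the pair may be divided between them, and their sum was 10.9, 18 and 12.8 CPM in siControl and 36.3, 16.7 and 45.4 CPM in siIGF2BP3. The exons of ZNF587 also share 2445 bases with ZNF814 on the opposite strand, and the use of strand in these counts is not given in the sources used here. In RPF ZNF417 read 6.48, 6.42 and 6.78 CPM against 6.04, 6.72 and 6.58 CPM, and ZNF587 7.10, 7.48 and 7.62 CPM against 6.64, 8.42 and 7.92 CPM, so the RPF groups overlapped for both. Without siIGF2BP3 Input replicate 1, without siIGF2BP3 Input replicate 3 or without siControl Input replicate 3 ZNF417 was no longer called, with adjusted p up to 0.097.

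**Figure D3:**
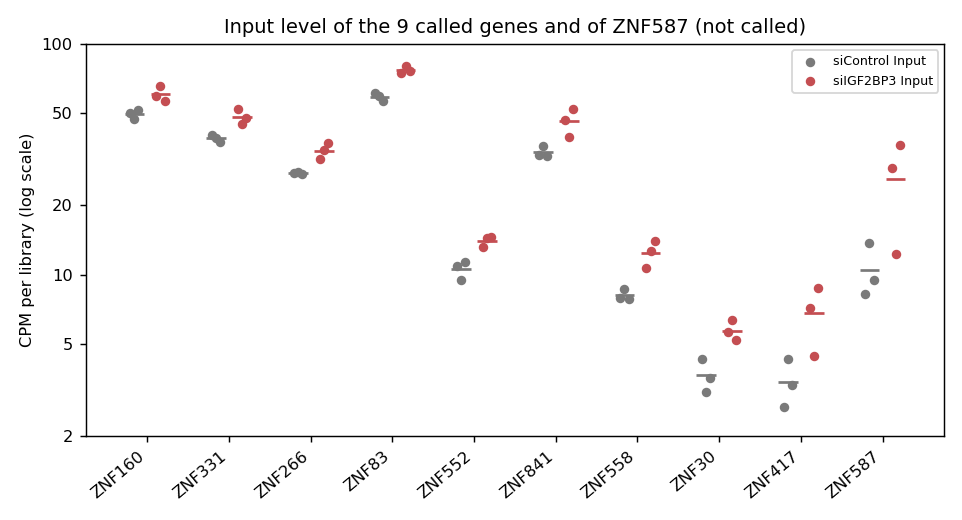
Input level in CPM (vertical log axis) of the 9 called genes, ordered by fold change, and of ZNF587, which was not called; points are single libraries, replicates 1 to 3 from left to right, and bars are means of 3, grey for siControl and red for siIGF2BP3. The groups do not overlap in the 9 genes, while 1 siIGF2BP3 library of ZNF587 lies among the siControl values.

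The third comparison asked which genes changed in footprints. In RPF 3 of the 214 genes tested rose and none fell, 1.40% of those tested. Of all genes tested 1.66% were called, 1.02% higher and 0.649% lower. An unadjusted edgeR p under 0.05 was found in 20 of the 214, a smaller share than the 2132 of 12387 protein-coding genes. The median log2 fold change was 0.01, with 114 genes above 0. All 3 siIGF2BP3 libraries lay above siControl in 17 genes and below in 14 (7.94% and 6.54%), against 10.9% and 14.8% over all genes tested. The 3 that rose were ZNF91, ZNF714 and ZNF813, and the same 3 were the only ones called in translational efficiency (TE), the change in RPF beyond the change in Input, where 196 of these genes were tested. Over all genes tested for TE 2.21% were called, 0.791% higher and 1.42% lower.

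ZNF91, the repressor of SVA elements, read 4.55, 4.13 and 3.94 CPM in siControl RPF and 6.75, 8.77 and 8.4 CPM in siIGF2BP3 RPF, without overlap. Means were 4.29 ± 0.37 (SD, n = 2) and 7.97 ± 1.1 CPM (SD, n = 3), and the RPF log2 fold change was 0.95 ± 0.10 (edgeR adjusted p = 0.0079). In Input it read 73.8, 57.7 and 69.5 CPM in siIGF2BP3, which overlapped the siControl values given above (0.12 ± 0.07, adjusted p = 0.33). The TE difference was 0.83 ± 0.15 (adjusted p = 0.0051), and this call held with every single library left out but not with limma (adjusted p = 0.24).

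ZNF714 (chr19:21082159-21125270, plus strand) read 4.41, 3.61 and 3.98 CPM in siControl RPF and 6.44, 8.24 and 8.76 CPM in siIGF2BP3 RPF, a log2 fold change of 0.99 ± 0.12 (adjusted p = 0.013). Its Input values, 20.2, 18.7 and 22.1 CPM against 27.8, 23.2 and 24.1 CPM, did not overlap either but did not pass the test (0.26 ± 0.09, adjusted p = 0.11). Its TE difference was 0.74 ± 0.16 (adjusted p = 0.022). ZNF813 (chr19:53467735-53496255, plus strand) read 7.99, 7.72 and 7.23 CPM in siControl RPF and 9.83, 11.1 and 11.1 CPM in siIGF2BP3 RPF (0.50 ± 0.07, adjusted p = 0.023). Its Input values overlapped, at 19.7, 20.1 and 22.6 CPM against 22.3, 18.3 and 18.9 CPM, and its TE difference was 0.62 ± 0.14 (adjusted p = 0.022). In all 3 genes the RPF level stayed below Input in siIGF2BP3 as in siControl, with ratios in siIGF2BP3 of -2.91 ± 0.12, -1.52 ± 0.12 and -0.74 ± 0.11. The TE calls of ZNF714 and ZNF813 were each lost in 9 of 26 alternatives, 7 of them with a single library left out and the others with siControl RPF replicates 2 and 3 summed and with limma (adjusted p up to 0.26).

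The 3 genes shared 38.0%, 41.6% and 45.5% of their windows with other genes. Of the windows of ZNF91 8.09% occur in ZNF714 and 0.282% in ZNF813, and ZNF813 holds 17.6% of its windows in common with ZNF761. With siControl RPF replicates 2 and 3 summed into 1 library no RPF call remained, at adjusted p of 0.072 for ZNF91, 0.090 for ZNF714 and 0.12 for ZNF813, while the fold changes of the 3 over all alternatives ran from 0.89 to 1.01, 0.91 to 1.06 and 0.46 to 0.53. With single libraries left out the RPF count was 0 without any one of the siControl RPF libraries or without siIGF2BP3 RPF replicate 2, 1 without siIGF2BP3 RPF replicate 3, and 19 without siIGF2BP3 RPF replicate 1.

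**Figure D4:**
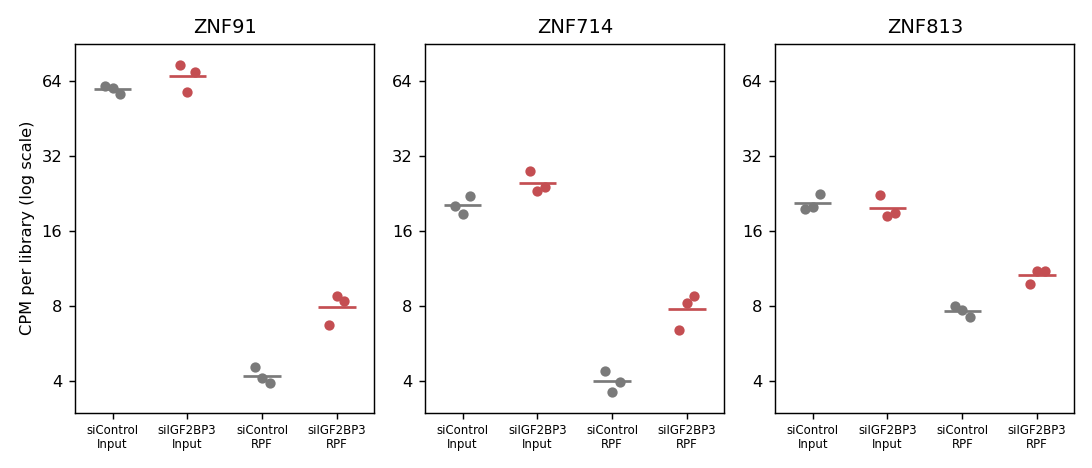
CPM (vertical log axis) of ZNF91, ZNF714 and ZNF813 in the 4 groups; points are single libraries, replicates 1 to 3 from left to right, and bars are means of the 3 libraries. In RPF every siIGF2BP3 point lies above every siControl point, and siIGF2BP3 RPF replicate 1 is the lowest of its group in all 3 genes.

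Footprint changes were also taken by neighbourhood, with no test between them. In neighbourhood 5, which holds ZNF91 and ZNF714, 25 of the 28 genes tested had an RPF log2 fold change above 0, with a median of 0.25. Of all protein-coding genes 50.4% were above 0, and of the other protein-coding genes of chromosome 19 68.0% (516 of 759) with a median of 0.07. The values ran from -0.11 for ZNF682 to 0.99 for ZNF714. An unadjusted edgeR p under 0.05 was found in 9 of the 28, against 2132 of 12387 protein-coding genes. The summed level of the 37 genes was 114, 113 and 112 CPM in siControl RPF and 116, 137 and 141 CPM in siIGF2BP3 RPF, so replicate 1 stood close to siControl and replicates 2 and 3 apart from it. Without ZNF91 and ZNF714 the sums were 105, 105 and 104 CPM against 103, 120 and 123 CPM, and the groups overlapped. In Input the 37 genes summed to 264, 254 and 260 CPM in siControl and 315, 271 and 289 CPM in siIGF2BP3, and 20 of 23 tested genes were above 0 with a median of 0.10.

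In neighbourhood 15, which holds ZNF813, 27 of 34 genes were above 0 in RPF with a median of 0.12. Its 40 genes summed to 161, 161 and 161 CPM in siControl RPF and 155, 183 and 188 CPM in siIGF2BP3 RPF, so the groups overlapped. Without siIGF2BP3 RPF replicate 1, 2 or 3, the genes above 0 were 31 of 36, 21 of 34 and 22 of 34. In neighbourhood 3, 4 of 26 were above 0 with a median of -0.09, although 16 of 23 were above 0 in Input. In neighbourhood 16, 26 of 50 were above 0 with a median of 0.00. Genes of neighbourhoods 3, 5 and 15 share many windows, and reads divided between them would tie their counts together, so the genes cannot be taken as independent. The GC content of neighbourhood 5 ran from 33.9% to 45.4%, and other protein-coding genes in that range had an RPF median of -0.02 with 45.8% above 0. With a GC offset the counts above 0 were 25 of 28, 27 of 34 and 8 of 26 in neighbourhoods 5, 15 and 3.

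Without siIGF2BP3 RPF replicate 1, the library that stood apart, 17 genes rose and 2 fell in RPF out of 221 tested. Over all genes tested there 16.5% were called, 7.97% higher and 8.57% lower. The rises were near that background, while the falls were well below it. This fit keeps siControl RPF replicates 2 and 3 as separate libraries and compares them with siIGF2BP3 RPF replicates 2 and 3, which differ little from each other. With the siControl pair also summed, an alternative chosen after seeing the data, 17 of 223 rose and 3 fell. Over all genes 3025 were called in this fit, a total not split by direction here, so these counts are not set against a background. Of the 17 that rose with the pair kept separate, 8 lie in neighbourhood 5 and 9 in neighbourhood 15. In neighbourhood 5 these were ZNF91, ZNF714, ZNF429, ZNF708, ZNF100, ZNF626, ZNF724 and ZNF431. In neighbourhood 15 they were ZNF347, ZNF841, ZNF813, ZNF765, ZNF480, ZNF534, ZNF761, ZNF468 and ZNF616. Their log2 fold changes were 0.27 to 1.06, and they shared between 7.76% and 90.5% of their windows. The pair that fell were ZNF792 (-0.44 ± 0.09) in neighbourhood 8 and ZNF274 (-0.23 ± 0.07) in neighbourhood 16; with all libraries ZNF274 read 14.9, 16.3 and 14.1 CPM in siControl RPF and 11.9, 13.3 and 12.6 CPM in siIGF2BP3 RPF, without overlap (adjusted p = 0.16). These genes outside the rule for named genes were named after their values were seen.

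**Figure D5:**
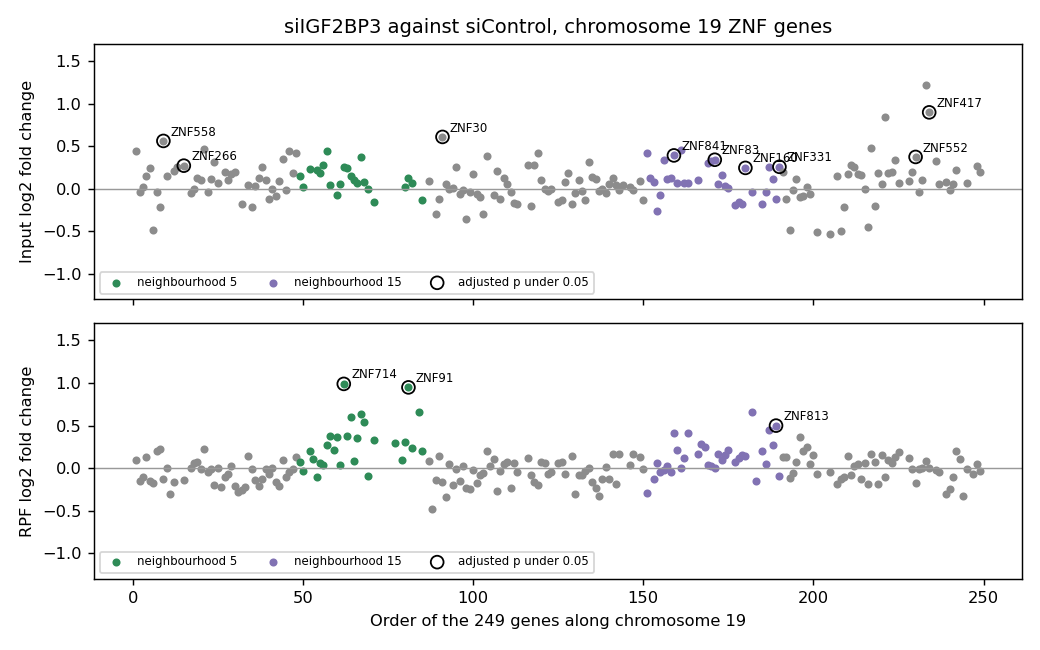
log2 fold change of siIGF2BP3 against siControl in Input (top) and RPF (bottom) for the tested ZNF genes, in their order along chromosome 19; green marks neighbourhood 5, purple neighbourhood 15, and rings mark adjusted p under 0.05. In RPF 25 of 28 green points lie above 0.

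The TE median of these genes was -0.06 over 196 tested, with 83 above 0, against 0.01 for all protein-coding genes; in genes with the KRAB-like pattern it was -0.08 and in those without it 0.05. In neighbourhood 3, 4 of 23 were above 0. The 9 genes called in Input were chosen for a higher Input, which enters TE with a minus sign, so their TE values are a description: they ran from -0.89 for ZNF417 to 0.02 for ZNF841, 8 of the 9 below 0, and none passed the test. Without siIGF2BP3 RPF replicate 1, 8 of 200 genes were called in TE, 4 higher and 4 lower (background 9.99% called, 4.41% higher and 5.58% lower).

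The partners through which KRAB proteins act were present throughout. All 30 genes of a list of cofactors and heterochromatin factors were tested, and none passed the test in Input (8 with an unadjusted p under 0.05) or in RPF (10) by edgeR. Among protein-coding genes 2602 of 12206 in Input and 2132 of 12387 in RPF had an unadjusted edgeR p under 0.05. In TE 3 fell and none rose, 3 of 30 against 1.42% called lower over all genes tested. TRIM28 read 108, 113 and 105 CPM in siControl Input and 107, 111 and 106 CPM in siIGF2BP3 Input, and 400, 385 and 400 CPM against 464, 384 and 383 CPM in RPF, where siIGF2BP3 replicate 1 was the high library. SETDB1 read 29.6, 32.4 and 31.4 CPM in siControl RPF and 24.4, 26.5 and 30.1 CPM in siIGF2BP3 RPF, which overlapped (TE -0.30 ± 0.11, adjusted p = 0.17). The 3 that fell in TE were ATF7IP2 (-0.41 ± 0.10), a relative of the SETDB1 partner ATF7IP, DNMT3B (-0.45 ± 0.11), a de novo DNA methyltransferase, and MORC2 (-0.37 ± 0.09), which works with the HUSH silencing complex, with adjusted p from 0.030 to 0.032. Each lost its call in 13 or 14 of 26 alternatives, and none of the 30 was called with siControl RPF replicates 2 and 3 summed, with no filter or by limma. For MORC2 the RPF values were 41.2, 40.6 and 43.0 CPM against 31.1, 35.7 and 37.6 CPM, without overlap, and Input was 79.7, 72.6 and 78.2 CPM against 86.5, 86.4 and 88.8 CPM.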

How the data were processed

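Input and RPF libraries of HepG2 cells were grouped by the sample labels. Per the labels and the study's methods, the authors used Cutadapt for adapters, STAR for alignment to hg38 and featureCounts for counting; the methods name an annotation and stranded alignment for the study's RNA-seq without repeating them for ART-seq, and versions, counting options and the making of Input libraries are not given in the sources used here. The authors deposited featureCounts output that is an estimated count per gene, often fractional, and these values were rounded before testing. Symbols and types came from GENCODE release 44. Protein features were read from canonical coding sequences of that release, in place of the RefSeq proteins first planned.

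Tests used edgeR 4.0.16 (R 4.3.3): filterByExpr, TMM factors, robust quasi-likelihood tests and Benjamini-Hochberg adjustment over all genes tested, with TE as the interaction of assay and knockdown. Errors after ± of log2 values are standard errors. CPM are counts over the library total. Alternatives used DESeq2 1.42.0 (named for TE in the study's methods), limma 3.58.1, other scaling, filters, offsets, a replicate block and left-out libraries. The fits were also run on simulated independent counts with known fold changes and the same dispersion in every library. That simulation had no near-identical pair of libraries, no outlying library and no divided reads, so it cannot show how these affect the calls.

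RPF libraries of the same number deviated together (r = 0.35, 0.30 and 0.11 for replicates 1 to 3). So did siControl replicate 2 with siIGF2BP3 replicate 3 (r = 0.20) and siControl replicate 3 with siIGF2BP3 replicate 2 (r = 0.17). These values therefore do not show that the numbers pair the libraries. The block changed no RPF call of these genes.

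Named genes were known retroelement regulators and imprinted or abundant members (the 8 highest by TPM), all called members, the 3 with the lowest p where under 4 were called, the 5 highest and 5 lowest siControl ratios at 2 CPM or more, the 3 with most shared windows (6 tied), and called cofactors with TRIM28 and SETDB1. Members and lists were chosen with earlier results of these data known. No molecular identifiers are named in the sources used here, so counts may include PCR copies.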

Additional observations from a re-analysis of the deposited data

How the results depend on the processing

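The direction of every named call was kept in all alternatives run. In Input the count of 9 called genes was 4 with DESeq2, which gave no adjusted p for 217 of 233 genes, and 4 to 9 with single libraries left out. Without siControl Input replicate 2, siControl Input replicate 3 or siIGF2BP3 Input replicate 3 it was 4, and without siIGF2BP3 Input replicate 1 it was 5. In RPF the count of 3 became 7 with the GC offset, 0 with siControl RPF replicates 2 and 3 summed (15 at an unadjusted p under 0.05, and 3 by DESeq2 on all libraries) and 0 to 19 with single libraries left out. With those replicates summed and siIGF2BP3 RPF replicate 1 left out, chosen after seeing the data, it was 20 in RPF and 8 in TE, and 3025 and 1081 over all genes. In TE the count of 3 became 6 (3 higher, 3 lower) with the GC offset, 1 with siControl RPF replicates 2 and 3 summed, 0 by limma on log2 ratios (24 at an unadjusted p under 0.05) and 1 to 8 with single libraries left out, the 8 without siIGF2BP3 RPF replicate 1. For the ratio of RPF over Input a minimum of 5 CPM left 97 calls in siControl and 86 in siIGF2BP3, with fewer genes tested, and leaving out single libraries gave 168 to 178 and 146 to 164. With the replicate number as a block the counts were 8 in Input, where ZNF552 lost its call, 3 in RPF, 3 in TE, and 176 and 155 for the ratios; outside RPF same-numbered libraries did not all deviate together. Over all genes the RPF calls, 336, became 644 with DESeq2, 1094 with the GC offset, 14 with the libraries summed, 200 among protein-coding genes only, and 11 to 3410 with single libraries left out. The TE calls over all genes, 296, became 178 with no filter, 802 with the GC offset, 141 with the libraries summed, 0 by limma, and 126 to 1347 with single libraries left out. The Input calls over all genes, 879, became 444 to 907 with single libraries left out. The ratio calls over all genes, 18980 and 17571, became 11817 and 11382 at the 5 CPM minimum and 11346 and 10647 among protein-coding genes only, where fewer genes were tested. Depth limits the genes under 1 CPM, and of the 249 genes 49 were not tested in Input, 35 in RPF and 53 in TE.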
